A study of Mus musculus with 24 samples.

Results

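Cilp, Cthrc1, Fap, Fn1, Aebp1, Comp and Ptn are 7 genes used as markers of activated fibroblasts, the state that fibroblasts of the heart enter when the ventricle is injured or overloaded. They were chosen by gene symbol with earlier results of these data known, so the shares of all genes given beside them are no independent test. All 7 were found among the 14912 genes of the table and all 7 passed the filter on low values that left 14026 genes to test. RNA was sequenced from the left ventricle of male wild-type (WT) C57BL/6J mice that received angiotensin II (ANG II), a peptide hormone that raises blood pressure, at 1500 ng/kg/min for 7 days (the hypertensive-LVH group, 12 samples), or saline over the same 7 days (the control group, 12 samples). Both infusions came from osmotic mini-pumps under the skin, no other allele or agent is listed for either group, the age of the mice is not given in the sources used here, and the study describes its samples as biological replicates. The model therefore covers a single dose and time in 1 sex of 1 strain, and the ventricle was sequenced whole, without sorting of cells.

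In the healthy ventricle, fibroblasts keep up a thin network of matrix between the myocytes. Under pressure overload, transforming growth factor beta, mechanical load and angiotensin II itself can drive them into a matrix-producing state, in which they secrete fibronectin, collagens and matricellular proteins, modify that matrix with enzymes and release factors that act on neighbouring cells. The 7 genes cover these roles. Fn1, Comp and Cilp encode proteins of the extracellular matrix, Cthrc1 and Ptn encode secreted proteins with signaling roles, Fap encodes a protease at the cell surface, and Aebp1 encodes a carboxypeptidase-like matrix protein that binds collagen.

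Of the 7 genes, 4 rose in the hypertensive-LVH group, namely Fn1, Cthrc1, Cilp and Ptn, and none fell (0 were lower at an unadjusted p under 0.05 either). A gene was called when limma gave an adjusted p under 0.05 and an absolute log2 fold change of log2(FPKM + 1) above 0.5. By the same rule 4.52% of the 14026 genes rose and 1.4% fell. Fap passed the adjusted p with a log2 fold change under 0.5, and Aebp1 and Comp did not pass it. By the adjusted p alone 5 of the 7 genes were higher, against 20.9% of all genes. The median log2 fold change of the 7 genes was 1.35, and that of all genes tested was 0.05. This median is the value of Comp, which was not called, and without samples 4 to 6 of both groups it was 0.365. In whole-tissue RNA, more cells of a type and more RNA of a gene per cell cannot be told apart.

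FPKM is a fragment count scaled for transcript length and library depth, but the deposited values had been shifted and scaled gene by gene in 4 sets, each made of 3 samples of either group with the same numbers (1 to 3, 4 to 6, 7 to 9 or 10 to 12), so that some lie below 0. The sets were found from exact ties between samples, and a step that makes them is not named in the sources used here. In Fn1, Comp, Cilp and Cthrc1 the 3 control samples of the set 4 to 6 have values below 0, and 4.15% of all genes tested have at least 1 control value below 0. Values below 0 were set to 0 for the log2 scale and for the summed levels of marker lists. They were kept in the levels, means and SD of single genes given here. The scaling of all 7 genes could be undone from the spacing of their values, which gives differences between samples of the same set before the adjustment, in FPKM, but not the level of a set. Each gene is therefore given on both scales, the deposited value and the difference from the mean of the 3 controls of the same set before the adjustment.

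Gene positions were read from GENCODE vM21 (GRCm38), an annotation that may not be the one the authors used. Fn1 lies on chromosome 1 at 71585520 to 71653200 on the minus strand, Fap on chromosome 2 at 62500943 to 62574075 on the minus strand, and Ptn on chromosome 6 at 36714929 to 36810220 on the minus strand. Comp lies on chromosome 8 at 70373558 to 70382066, Cilp on chromosome 9 at 65265180 to 65280605, Aebp1 on chromosome 11 at 5861947 to 5872088 and Cthrc1 on chromosome 15 at 39076932 to 39087121, all on the plus strand. A gene on the opposite strand, Apol7d, overlaps Fn1, and since the counting is not stated to use strand, reads of these 2 genes cannot be told apart where they overlap.

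RefSeq promoter sequence of GRCm38.p6 was at hand for 3 of the 7 genes. The 250 bases before the RefSeq start site are shown for these, as the stretch next to the start of transcription of genes that were followed as a group. The windows are chr9:65264930-65265179 on the plus strand for Cilp, chr11:5861616-5861865 on the plus strand for Aebp1 and chr6:36810180-36810429 on the minus strand for Ptn. By the GENCODE positions above, the Ptn window reaches into the gene and the Aebp1 window ends short of the gene start. Capitals mark matches, on either strand, to the motifs of AP-1 (TGANTCA), TEAD (GGAATG), SMAD (CAGAC) and the E-box (CANNTG), the letters bound by factors known to act in fibroblasts among other cells.
Cilp: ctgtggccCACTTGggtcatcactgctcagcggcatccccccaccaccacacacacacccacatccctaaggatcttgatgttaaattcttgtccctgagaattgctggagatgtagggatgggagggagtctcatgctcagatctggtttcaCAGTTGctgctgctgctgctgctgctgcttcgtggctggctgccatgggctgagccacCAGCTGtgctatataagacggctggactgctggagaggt
Aebp1: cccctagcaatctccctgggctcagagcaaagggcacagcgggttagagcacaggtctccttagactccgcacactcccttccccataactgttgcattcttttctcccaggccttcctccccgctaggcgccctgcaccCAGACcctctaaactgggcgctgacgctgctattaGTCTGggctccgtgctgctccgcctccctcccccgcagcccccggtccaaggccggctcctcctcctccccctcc
Ptn: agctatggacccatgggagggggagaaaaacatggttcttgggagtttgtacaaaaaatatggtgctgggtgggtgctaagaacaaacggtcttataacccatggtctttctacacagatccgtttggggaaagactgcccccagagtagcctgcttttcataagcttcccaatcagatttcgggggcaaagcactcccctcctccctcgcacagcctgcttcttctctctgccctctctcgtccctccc

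The Cilp window holds 3 E-box matches, starting at positions -242, -97 and -39 from the start site, the Aebp1 window holds 2 SMAD matches, at -110 and -75, and the Ptn window holds none of the 4 motifs. None of the 3 windows holds the exact letters TATAAA. Other forms of this motif were not searched for, and the Cilp window reads TATATAAG shortly after its last E-box match. Of 32851 mouse promoter windows of this length, 66.2% hold the E-box, 42.2% the SMAD letters, 12.6% the TEAD letters, 6.75% the AP-1 letters and 12.4% TATAAA, so the matches in Cilp and Aebp1 are of frequent kinds. The share of G and C was 64.4% in the Aebp1 window, 56.0% in that of Cilp and 52.0% in that of Ptn.

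Fn1 encodes fibronectin, the glycoprotein on which cells assemble early repair matrix and which binds integrins. Its deposited FPKM ran from 26.1 through a median of 73.8 to 126 in the 12 samples of the hypertensive-LVH group and from -11.1 through 40.8 to 56.5 in the 12 control samples. In the hypertensive-LVH group 7 samples lay above the highest control, the 3 of the set 4 to 6 led with values of 117 to 126, and sample 9 lay below the controls of its own set. The means were 79.2 ± 33.5 and 30.9 ± 24.2 (SD, n = 12 each), and Fn1 rose with a log2 fold change of 2.08 ± 0.69 (SE, limma adjusted p = 0.0233). Before the adjustment the mean difference was 4.36 for samples 1 to 3, 121 for 4 to 6, 40.3 for 7 to 9 and 23.4 for 10 to 12. It was above 0 in every set, and all 9 ANG II samples of the latter 3 sets, sample 9 included with 7.97, lay above every control of their own set.

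Comp encodes cartilage oligomeric matrix protein, a thrombospondin that bridges collagen fibrils. In deposited FPKM, Comp ran from 15.9 through 19.9 to 62.6 with ANG II and from -14.9 through 21.1 to 24.7 in the control group, so that the median was lower with ANG II. The means were 28.7 ± 17.0 and 13.5 ± 15.2, and the log2 fold change was 1.35 ± 0.58, which did not pass the test (adjusted p = 0.0742). On the scale before the adjustment, the mean difference was 66.6 in samples 4 to 6, with the 3 ANG II samples between 55.1 and 73.9 above the control mean. In the other sets it was -1.37 (samples 1 to 3), 1.67 (7 to 9) and 3.73 (10 to 12), and the set 4 to 6 supplied 94.3% of the sum over the 4 sets. All 9 ANG II samples of samples 4 to 12 lay above the controls of their set before the adjustment, by as little as 0.243 over the control mean. As deposited, the difference was -7.02 for samples 7 to 9 and -0.395 for 10 to 12, and for samples 1 to 3 it was 1.92, so that the adjustment turned the direction of Comp in 3 of the 4 sets.

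Cilp encodes cartilage intermediate layer protein, a secreted matrix protein known to bind transforming growth factor beta and raised in the scarred heart. In deposited FPKM, Cilp ran from 21.3 through 34.5 to 97.2 with ANG II and from -13.7 through 23.1 to 28.4 in the control group. In 9 of the 12 ANG II samples it exceeded the highest control, and samples 7, 10 and 12 lay within the range of the controls. The means were 42.9 ± 22.5 and 15.4 ± 16.5, and Cilp rose with a log2 fold change of 1.81 ± 0.60 (adjusted p = 0.0216). Before the adjustment the mean difference was 83.2 for samples 4 to 6, 18.3 for 10 to 12, 13.7 for 7 to 9 and 2.98 for 1 to 3. The controls of a set lay within 2.49 of their mean, and ANG II samples 2 and 3, at -0.440 and -0.340, stood among them while the other 10 lay above them.

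**Figure D1:**
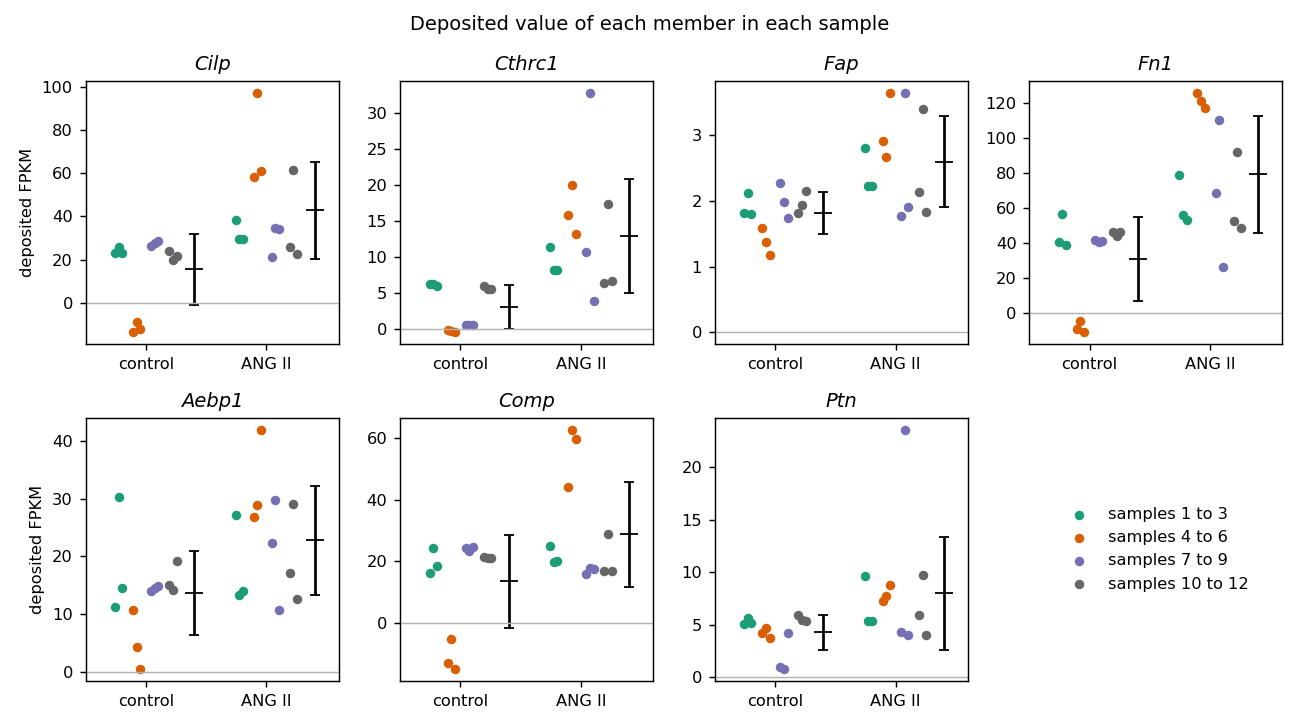
Deposited FPKM of each of the 7 genes (vertical axes, 1 panel a gene, linear scale) in the 12 control and 12 ANG II samples, coloured by sample set, with the mean and SD of each group as a black bar. The control samples 4 to 6 lie below 0 in Cilp, Cthrc1, Fn1 and Comp, and ANG II sample 8 stands highest in Ptn at 23.6.

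Cthrc1 encodes collagen triple helix repeat containing 1, a secreted glycoprotein made by fibroblasts that migrate into injured tissue and a cofactor in Wnt signaling. In deposited FPKM, Cthrc1 ran from 3.84 through 11.0 to 32.8 with ANG II and from -0.452 through 3.04 to 6.22 in the control group. Of the 12 ANG II samples 11 exceeded the highest control, and all 12 exceeded the controls of their own set on this scale. The means were 12.9 ± 7.93 and 3.02 ± 3.05, and Cthrc1 rose with a log2 fold change of 2.05 ± 0.41 (adjusted p = 5.62e-04). On the scale before the adjustment, the mean difference was 16.3 for samples 4 to 6, 15.2 for 7 to 9, 5.52 for 10 to 12 and 1.21 for 1 to 3. The controls spread little, within 0.263 of their set mean, and the 3 controls of samples 7 to 9 share 1 value, while the ANG II samples of that set lay 2.47, 9.73 and 33.4 above it. ANG II samples 2 and 3, at -0.0433 and 0.0067, were again level with their controls.

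Ptn encodes pleiotrophin, a heparin-binding growth factor related to midkine. Its deposited FPKM ran from 4.00 through 6.59 to 23.6 with ANG II and from 0.798 through 4.90 to 5.91 in the control group. In the hypertensive-LVH group 7 samples exceeded the highest control, and sample 8 lay far above the second highest, sample 11 with 9.74. The means were 7.98 ± 5.33 and 4.27 ± 1.70, and Ptn rose with a log2 fold change of 0.72 ± 0.25 (adjusted p = 0.0290). Without ANG II sample 8 the log2 fold change was 0.57 (adjusted p = 0.0509), and without control sample 7 or 8 the adjusted p was 0.0512 and 0.0509, so that the call rests on single samples. Before the adjustment the mean difference was 8.60 for samples 7 to 9, which contain sample 8 at 22.0 above the control mean, 4.96 for 4 to 6, 2.31 for 10 to 12 and 0.867 for 1 to 3. Ptn was the only one of the 7 genes whose difference was not largest in samples 4 to 6, where 52.8% of all genes have their largest and positive difference.

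Fap encodes fibroblast activation protein, a dipeptidyl peptidase that cleaves gelatin and is little made by resting fibroblasts. In deposited FPKM, Fap ran from 1.77 through 2.45 to 3.64 with ANG II and from 1.18 through 1.81 to 2.27 in the control group. In the hypertensive-LVH group 6 samples lay above the highest control and the others within the control range. The means were 2.60 ± 0.69 and 1.81 ± 0.32, and the log2 fold change of 0.34 ± 0.09 passed the adjusted p (0.00582) but not the fold change threshold. At this level the added 1 in log2(FPKM + 1) makes the fold change smaller than that of the FPKM itself. On the scale before the adjustment, the mean difference was 1.64 for samples 4 to 6, 0.57 for 7 to 9, 0.55 for 10 to 12 and 0.43 for 1 to 3, and on that linear scale the mean over the sets was 0.80 ± 0.21 (limma adjusted p = 0.0124).

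Aebp1 encodes AE binding protein 1, whose secreted form is also known as aortic carboxypeptidase-like protein. Its deposited FPKM ran from 10.7 through 24.6 to 41.9 with ANG II and from 0.60 through 14.4 to 30.2 in the control group. Only ANG II sample 6 exceeded the highest control, which was control sample 2. The means were 22.8 ± 9.38 and 13.7 ± 7.28, and the log2 fold change was 0.85 ± 0.34 (adjusted p = 0.0508), past the fold change threshold but not the adjusted p. Leaving out control sample 2 gave 0.98 (adjusted p = 0.0227), and leaving out control sample 12 or ANG II sample 2, 3, 9 or 12 also brought the adjusted p under 0.05. Before the adjustment the mean difference was -6.54 in samples 1 to 3, where the 3 controls spread from -11.0 to 17.0 around their mean, and 30.1 for 4 to 6, 8.56 for 7 to 9 and 4.82 for 10 to 12.

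**Figure D2:**
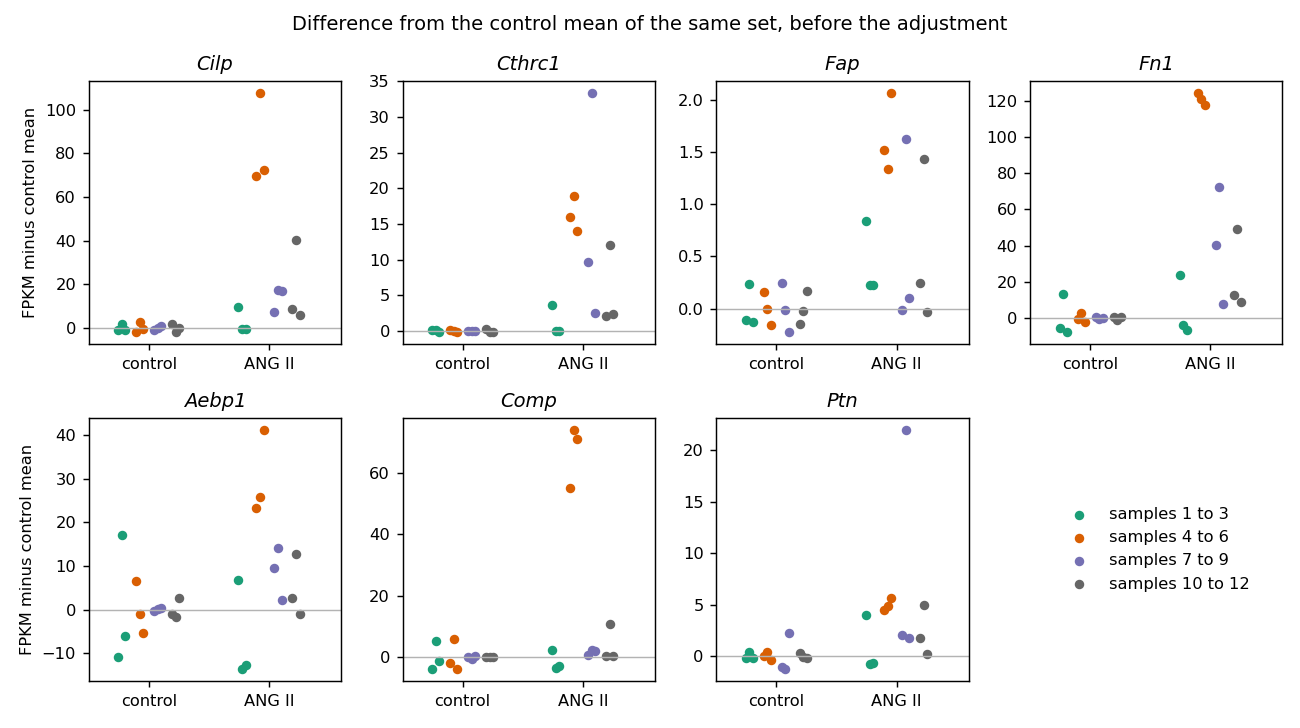
Difference of each sample from the mean of the 3 controls of its set before the adjustment (vertical axes, FPKM, linear scale) for the 7 genes, coloured by sample set. The ANG II samples 4 to 6 reach 108 in Cilp, 124 in Fn1 and 73.9 in Comp, and ANG II samples 2 and 3 lie at or below the highest control of their set in every panel.

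With the group labels exchanged only within the sets, the difference in mean log2(FPKM + 1) gave an exact permutation p of 1.25e-05 for Cthrc1, the smallest that the 160000 relabelings allow. For the other genes this two-sided exact test gave 0.00111 for Cilp, 0.0026 for Fn1, 0.00266 for Ptn, 0.00374 for Fap, 0.0235 for Aebp1 and 0.0866 for Comp, unadjusted for the 7 tests. The adjustment as solved here held a group term, so labels were not freely exchangeable on this scale and these p-values are not exact. ANG II samples 2 and 3 of Cthrc1, level with their controls before the adjustment, lie at 8.14 and 8.19 as deposited. Their controls lie at 5.97 to 6.22, so part of the separation behind the p of Cthrc1 came with the adjustment. On the values before the adjustment the exact p was 6.25e-05 for Cilp, 7.5e-05 for Cthrc1, 0.00095 for Fn1, 0.00124 for Fap, 0.00169 for Ptn, 0.0212 for Comp and 0.0491 for Aebp1. Cthrc1 and Cilp thus had the lowest p on both scales, and Aebp1 and Comp the highest.

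Fitted by limma with the set as a term on the linear values before the adjustment, 4 of the 7 genes were higher by the adjusted p alone, namely Cilp, Cthrc1, Fn1 and Fap, against 14.1% of the 13901 genes that could be fitted. The mean differences over the sets were 47.2 ± 11.5 FPKM for Fn1 (adjusted p = 0.00766), 29.5 ± 8.08 for Cilp (0.0142), 17.7 ± 6.63 for Comp (0.0583), 9.56 ± 2.68 for Cthrc1 (0.0161), 9.24 ± 4.32 for Aebp1 (0.118) and 4.19 ± 1.74 for Ptn (0.0825). The mean was higher with ANG II in all 4 sets for 5 of the 7 genes, against 21.6% of all genes, with Aebp1 and Comp lower in samples 1 to 3. In Cilp, Cthrc1, Fn1 and Comp all 9 ANG II samples of samples 4 to 12 lay above every control of their set, as in 4.48% of all genes, and in Cilp, Cthrc1 and Fn1 at least 10 of the 12 did so in their own set, as in 5.16% of all genes. As deposited, in none of the 7 genes did all ANG II samples exceed all controls, and this held in 0.271% of all genes.

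The sets differed in how far the genes moved. The ANG II difference on the log2 scale differed between the sets for 5 of the 7 genes, against 7.49% of all genes (moderated F test of the interaction of group and set). The adjusted p was 7.39e-13 for Comp, 8.35e-10 for Cilp, 3.57e-09 for Fn1, 0.00107 for Cthrc1 and 0.0415 for Aebp1, and 0.23 for Fap and 0.266 for Ptn. In Comp, Cilp, Fn1 and Cthrc1 the control samples 4 to 6 had all been set to 0 on this scale, so the floor enters these p-values. Before the adjustment 3 of the 7 genes passed, namely Comp (9.94e-06), Cilp (0.00337) and Fn1 (0.00421), against 6.05% of all genes. The share of the summed difference that came from samples 4 to 6 was 94.3% in Comp, 81.5% in Aebp1, 70.4% in Cilp, 64.0% in Fn1, 51.4% in Fap, 42.7% in Cthrc1 and 29.6% in Ptn.

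Without samples 4 to 6, 1 of the 7 genes rose, Cthrc1 with a log2 fold change of 1.36 (adjusted p = 0.0234), against 2.3% of all genes. The log2 fold changes of the others were then 0.70 for Ptn, 0.46 for Fn1, 0.36 for Cilp, 0.20 for Aebp1, 0.20 for Fap and -0.14 for Comp, and their median with Cthrc1 was 0.36, beside 0.01 over all genes. On the values before the adjustment, none of the 7 genes passed limma's adjusted p without these samples, against 3.53% of all genes, and 4 (Cilp, Cthrc1, Fap and Fn1) had an unadjusted p under 0.05. The mean differences were 22.7 for Fn1 (limma adjusted p = 0.105), 11.7 for Cilp (0.0777), 7.31 for Cthrc1 (0.177), 3.93 for Ptn (0.288) and 0.52 for Fap (0.165). The calls of Fn1 and Cilp thus needed samples 4 to 6 on both scales, and those of Cthrc1 and Fap needed them on the scale before the adjustment.

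**Figure D3:**
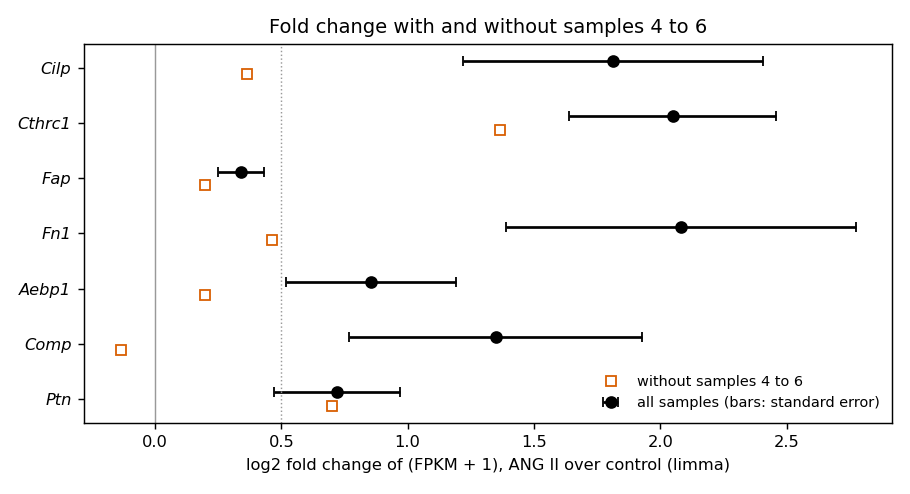
Log2 fold change of (FPKM + 1), ANG II over control (horizontal axis), of each of the 7 genes from limma, with all samples (black points, bars show the standard error) and without samples 4 to 6 (open squares). The dotted line marks the threshold of 0.5, and without samples 4 to 6 only Cthrc1 (1.36) and Ptn (0.70) stay to its right.

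Single mice differed within the hypertensive-LVH group. ANG II samples 2 and 3 exceeded the highest control of their set in none of the 7 genes before the adjustment, and in 14.8% and 12.1% of all genes, while ANG II sample 1 of the same set did so in 5 of the 7 genes, against 27.1% of all genes. Control sample 2 was the highest control of its set in 6 of the 7 genes, against 42.9% of all genes. The highest deposited value of the hypertensive-LVH group was that of sample 8 for Cthrc1, Fap and Ptn, of sample 5 for Cilp and Comp, of sample 4 for Fn1 and of sample 6 for Aebp1. For Fap, samples 8 and 6 were nearly level, with 3.639 and 3.634, and before the adjustment sample 6 lay higher above its controls than sample 8 (2.07 and 1.62).

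In the controls outside samples 4 to 6, levels per transcript length ranged from 38.8 to 56.5 deposited FPKM for Fn1, 19.9 to 28.4 for Cilp, 16.2 to 24.7 for Comp, 11.3 to 30.2 for Aebp1, 0.798 to 5.91 for Ptn, 0.558 to 6.22 for Cthrc1 and 1.74 to 2.27 for Fap. Fn1 lay above all others, Cilp, Comp and Aebp1 overlapped, and so did Ptn, Cthrc1 and Fap. In the 9 ANG II samples of these sets the medians were 55.7 for Fn1, 29.7 for Cilp, 17.9 for Comp, 17.1 for Aebp1, 8.19 for Cthrc1, 5.41 for Ptn and 2.23 for Fap. The ranges of Cthrc1 and Ptn, 3.84 to 32.8 and 4.00 to 23.6, overlapped there too. Since the offset of each set is unknown, these levels hold for the deposited scale only.

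To see which genes varied from mouse to mouse in the same way, the mean of each group within each set was taken off the log2 values, and Pearson's r was computed over the 24 samples with each of the 11457 genes of a mean of at least 1. These values describe samples that share libraries and sets and were not tested. Nearest to Cilp were Thbs4 (r = 0.94), Mxra7 (0.89) and Smoc2 (0.86), of which Thbs4 is a thrombospondin of the matrix like Comp. Nearest to Comp were Pamr1 (0.84), P3h2 (0.82) and Cilp itself (0.81). Nearest to Cthrc1 were Loxl3 (0.96), Sprr1a (0.96) and Enpp1 (0.94), and nearest to Fn1 were Col1a2 (0.95), Loxl3 (0.95) and Soat1 (0.94), so that Loxl3, a lysyl oxidase that crosslinks collagen, stood near both. Nearest to Aebp1 were Sulf1 (0.91), Gpc3 (0.91) and 9430015G10Rik (0.90), the first of which edits heparan sulfate chains and the second of which carries them.

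Fap had Actr3 (0.94), Mdfic (0.92) and Nono (0.92) nearest to it. Ptn had Ms4a7 (0.82), a gene of macrophages, Mthfd2 (0.81) and Col8a1 (0.81), and without ANG II sample 8 these values were 0.60, 0.78 and 0.68. Among the 7 genes themselves r was highest for Cthrc1 with Fn1 (0.93) and for Cilp with Comp (0.81), followed by Cthrc1 with Ptn (0.75) and Cthrc1 with Fap (0.72), and lowest for Cilp with Aebp1 (0.26). Without ANG II sample 8, r was 0.89 for Cthrc1 with Fn1 and 0.82 for Cilp with Comp, but 0.41 for Cthrc1 with Ptn, 0.43 for Cthrc1 with Fap and 0.35 for Fap with Ptn, so that the likeness of Ptn and Fap to Cthrc1 rested on that sample. Fap was then nearest to Comp (0.69) and Aebp1 (0.63).

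**Figure D4:**
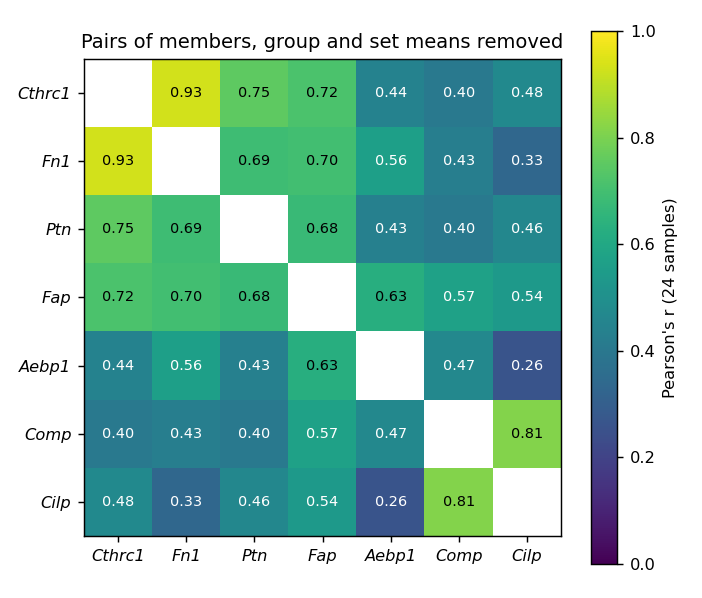
Pearson's r between the 7 genes over 24 samples after the mean of each group within each set was taken off the log2 values (both axes list the genes, colour and number give r). Cthrc1, Fn1, Ptn and Fap have r between 0.68 and 0.93 with each other, and Cilp and Comp have 0.81. Without ANG II sample 8 the r of Cthrc1 with Fn1 is 0.89 and those of the other pairs among these 4 genes lie between 0.35 and 0.47.

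The other genes of the activated fibroblast state were read from a list of 43 symbols, of which 41 were tested, the remaining 2 being later names of Ctgf and Wisp2. Of the 41 genes, 32 rose and 1 fell, with a median log2 fold change of 1.31, beside 4.52% and 1.4% of all genes. Like the lists below, this list was chosen with earlier results of these data known, so these shares are no independent test of it. The largest were Timp1, an inhibitor of matrix metalloproteinases (3.10 ± 0.59, adjusted p = 3.48e-04), and Col1a1, a chain of type I collagen (2.77 ± 0.88, adjusted p = 0.0180), and without samples 4 to 6 both still passed, at 2.54 and 0.77 (adjusted p = 0.0132 and 0.0172). Postn, encoding periostin, a usual marker of this state, rose by less (0.51 ± 0.19, adjusted p = 0.0363) and did not pass without samples 4 to 6 (0.31, adjusted p = 0.326). Lrrc15, a membrane protein used as a marker of myofibroblasts in tumors, fell (-1.14 ± 0.14, adjusted p = 2.84e-06), from 5.84 ± 1.24 to 2.16 ± 0.88 deposited FPKM, and was lower in every set before the adjustment. Acta2, the smooth muscle actin of myofibroblasts, had 0.23 ± 0.14 (adjusted p = 0.223). Without samples 4 to 6, 15 of the 41 genes rose and 1 fell, with a median of 0.39.

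Partners, receptors and relatives of the 7 genes were read from a second list, which shares Thbs4, Cilp2 and Tgfb1 with the first. Of 44 tested, 10 rose and none fell, with a median log2 fold change of 0.25, and without samples 4 to 6, 5 rose, with a median of 0.10. On the side of fibronectin, Itga5, a chain of its classical receptor, rose (0.64 ± 0.08, adjusted p = 3.43e-06) and was higher without samples 4 to 6 by nearly as much (0.60, adjusted p = 2.13e-04). Itgb1, the other chain, had 0.28 ± 0.06 (adjusted p = 8.03e-04), under the fold change threshold, Itgb3 rose (0.97 ± 0.12, adjusted p = 3.94e-06), and so did Tgm2, a transglutaminase that crosslinks fibronectin (0.53 ± 0.07, adjusted p = 5.90e-06). Of the other thrombospondins next to Comp, Thbs4 (1.63 ± 0.58, adjusted p = 0.0317) and Thbs3 (0.80 ± 0.24, adjusted p = 0.0118) rose, and Thbs1 and Thbs2 had 0.37 and 0.46 and did not pass. Without samples 4 to 6, Thbs4 and Thbs3 had 0.21 and 0.20 and did not pass (adjusted p = 0.377 and 0.144), while Itgb3 (0.79) and Tgm2 (0.56) did (adjusted p = 1.85e-04 and 1.74e-04).

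Next to Ptn, its relative Mdk, encoding midkine, rose (1.13 ± 0.31, adjusted p = 0.00733), and the pleiotrophin receptors Ptprz1 and Sdc3 had 0.04 and 0.25 and did not pass (adjusted p = 0.437 and 0.0785). Next to Cthrc1, the Wnt ligand Wnt5a had -0.42 ± 0.07 (adjusted p = 6.29e-05, under the fold change threshold) and its receptor Ror2 had 0.25 (adjusted p = 0.0314). Next to Cilp, its paralog Cilp2 had 0.32 ± 0.33 (adjusted p = 0.477). Next to Fap, Dpp4, the dipeptidyl peptidase most like it, had 0.02 (adjusted p = 0.913). Next to Aebp1, the carboxypeptidase-like Cpxm1 rose (0.98 ± 0.30, adjusted p = 0.0140), and Cpxm2 had 0.15 (adjusted p = 0.407). Without samples 4 to 6, Mdk, which has 2 values below 0, had 0.41 (adjusted p = 0.106) and Cpxm1 had 0.27 (adjusted p = 0.138), so that both calls were lost.

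Of the transforming growth factor beta ligands, Tgfb2 (0.66 ± 0.12, adjusted p = 3.30e-04) and Tgfb3 (0.95 ± 0.21, adjusted p = 0.00129) rose, and Tgfb1 had 0.44 ± 0.10 (adjusted p = 0.00213), under the fold change threshold. The receptor Tgfbr2 rose (0.63 ± 0.14, adjusted p = 0.00171), and Smad3, a transducer of the signal, had -0.18 ± 0.06 (adjusted p = 0.0166). Tgfb2 and Tgfb3 were both past the thresholds without samples 4 to 6 too (0.50 and 0.51, adjusted p = 0.0161 and 0.0277), and Tgfbr2 was not (0.35, adjusted p = 0.0529).

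**Figure D5:**
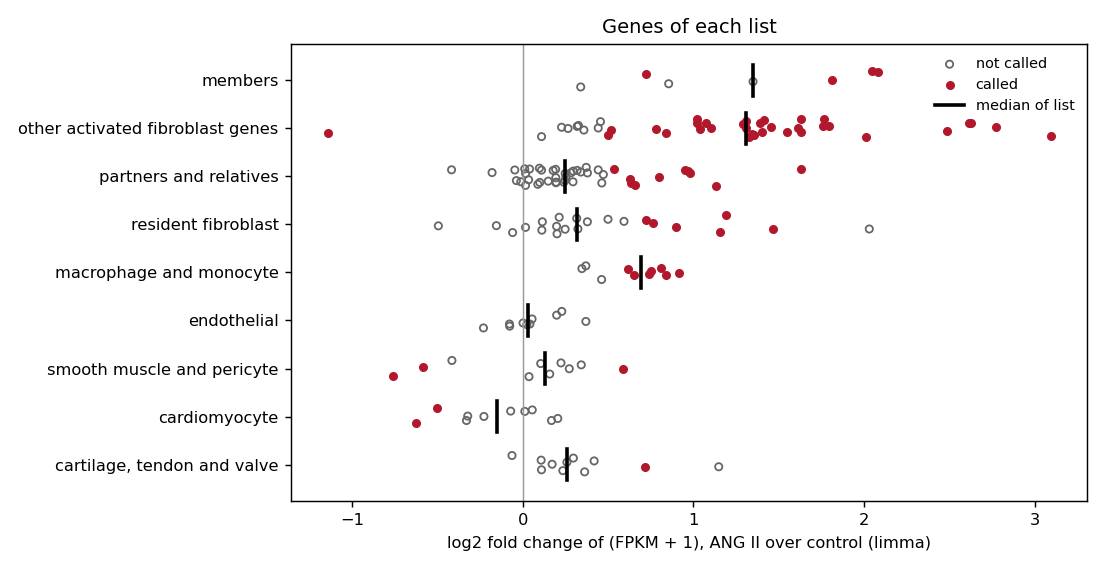
Log2 fold change of (FPKM + 1), ANG II over control (horizontal axis), of each gene of 9 lists (rows, 1 point a gene, jittered vertically), with called genes filled in red and the median of the list as a bar. The 7 genes and the other activated fibroblast genes have medians of 1.35 and 1.31, and the partners and the resident fibroblast genes have 0.25 and 0.32.

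Markers of the cells the whole ventricle holds moved as follows beside the 7 genes. In the sums given here and below, values below 0 count as 0. Cardiomyocyte genes were abundant, with a summed level of 30390 to 41478 deposited FPKM with ANG II and 38789 to 48293 with saline, and of 10, 2 fell and none rose (Tnni3, -0.63, and Myl2, -0.50, of which Myl2 did not pass the fold change threshold without samples 4 to 6, at -0.43). Genes of resident fibroblasts summed to 1919 to 4249 and 1110 to 2458, and of 22, 6 rose and none fell, with a median of 0.32. Serpinf1 (1.46) and Vim (1.19) led, while Gsn had -0.49 ± 0.09 (limma adjusted p = 3.02e-04), just under the fold change threshold. By the adjusted p alone 10 were higher and 1 lower. Without samples 4 to 6 the median was 0.08 with 1 higher and 1 lower. Vim then had 0.78 (adjusted p = 0.00391), Gsn -0.61 (adjusted p = 1.48e-04) and Serpinf1 0.35 (adjusted p = 0.126). The deposited sum of the 22 genes in the control samples 4 to 6 averaged 1277, beside 2162 to 2231 in the controls of the other sets. Since the offset of each set is unknown, these sums do not compare the fibroblast content of mice between sets. Genes of macrophages and monocytes summed to 345 to 1076 and 267 to 614, and of 10, 7 rose, led by Cd68 (0.92) and Itgam (0.84), with none past both thresholds without samples 4 to 6.

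Of 10 endothelial genes none passed both thresholds, with 3 higher and 1 lower by limma's adjusted p alone, and of 10 smooth muscle and pericyte genes Mcam rose (0.59, and 0.44 without samples 4 to 6, under the threshold) and 2 fell, Vtn the most (-0.76). Of 11 tested genes of cartilage, tendon and valve, 1 rose, the tendon factor Scx (0.72), and 9 of the 14 in the table had a mean under 1. Of 10 Schwann cell and neuron genes (3 past limma's adjusted p alone, and as many at an unadjusted p under 0.05) and 7 adipose genes (1 by either) none passed both thresholds. Of 9 mesothelial and 5 atrial genes 0 passed, and 0 had an unadjusted p under 0.05 in limma, although the summed atrial level lay between 8.68 and 2466 with ANG II and between 10.6 and 3379 with saline. The part of resident fibroblasts, macrophages and the other cell types in the values of the 7 genes was not tested.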

How the data were processed

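Left ventricular RNA of 12 ANG II and 12 control mice was selected with oligo(dT) and sequenced in pairs of reads. The study describes more samples per group, and those beyond 12 were not analysed here. The submitters' processing notes name HISAT, Bowtie2 and RSEM. The genome build and annotation are not given in the sources used here. The authors deposited 1 value per gene symbol and sample as FPKM. Since 2741 values (0.766%) are below 0, the deposited values were read as a score, FPKM moved and stretched for each gene in 4 sets of samples. Sets were found from exact ties (215 to 541 genes tied within a set, 0 between sets, with at least 100 needed to join samples). The spacing of values, in steps of 0.01 FPKM before the adjustment, gave a single scaling for 14442 genes, all 7 reported here among them. The model solved for this keeps a common group difference out of the scaling of each set and adds it back unscaled. Per sample the values summed to between 460715 and 515185 with ANG II and between 482319 and 567727 with saline. Fragment counts and depth were not used, so no counting error is given.

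Values below 0 were set to 0 and log2(FPKM + 1) was fitted by limma with an intensity trend for genes with a mean of at least 0.1, with Benjamini-Hochberg adjustment. Log2 fold changes on this scale understate the change of low genes. In Fn1, Comp, Cilp and Cthrc1 the controls of samples 4 to 6 lie at its floor of 0. Their log2 fold changes therefore depend strongly on that set and are not the size of a typical rise. For Fn1 it was 2.08 with all samples and 0.46 without samples 4 to 6. Printed levels, means and SD of single genes keep the negative values, while the summed levels of marker lists count them as 0. The recovery of the scaling and the limma fit were tested on simulated data. The data simulated for limma held no sample sets and no values set to 0, so that test does not cover these features. The interaction of group and set was tested by limma's moderated F test, and single genes by an exact two-sided permutation within sets. Software was R 4.3.3, limma 3.58.1, Python 3.11.15, numpy 2.4.6, pandas 2.3.3 and scipy 1.17.1.

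The 7 genes and the gene lists were chosen with earlier results of these data known. Named beyond the 7 were, of each list, the 2 called genes with the largest change and up to 2 against its direction, the genes paired with one of the 7, and the 3 genes most like each. Postn, Acta2 and Gsn were named after their values were seen. Alternatives were no filter or one at a mean of 1, a pseudocount of 0.1, quantile normalization, median-ratio scaling, no trend, the set as a term, a Wilcoxon rank-sum test, a replicate block, leaving out each sample or set, a linear scale, and the values before the adjustment. Those before the adjustment without samples 4 to 6, and the interaction and permutation before the adjustment, were chosen after seeing the data.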

Additional observations from a re-analysis of the deposited data

Results flagged for a closer look

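The ANG II difference of 5 of the 7 genes differed between the 4 sets of samples by the test of the interaction of group and set (limma, moderated F test, adjusted over all genes). The adjusted p was 8.35e-10 for Cilp, 0.00107 for Cthrc1, 3.57e-09 for Fn1, 0.0415 for Aebp1 and 7.39e-13 for Comp. In each of them the difference before the adjustment was largest in samples 4 to 6, at 83.2 FPKM for Cilp, 16.3 for Cthrc1, 121 for Fn1, 30.1 for Aebp1 and 66.6 for Comp. Without samples 4 to 6 the adjusted p was 0.906 for Cilp, 0.453 for Cthrc1, 0.999 for Fn1, 0.972 for Aebp1 and 0.783 for Comp. In Cilp, Cthrc1, Fn1 and Comp the control samples 4 to 6 had been set to 0 on the log2 scale, so the floor enters the p-values with all samples. On the linear scale before the adjustment, where no value was set to 0, the adjusted p with all samples was 9.94e-06 for Comp, 0.00337 for Cilp and 0.00421 for Fn1. There it was 0.358 for Cthrc1 and 0.0988 for Aebp1.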

How the results depend on the processing

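In place of the 831 genes called, 1489 were called with a pseudocount of 0.1, 552 without samples 4 to 6, 4616 on a linear scale and 3260 before the adjustment (both without a fold change threshold), and 1405 before the adjustment without samples 4 to 6. Leaving out each sample gave 715 to 979.

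Of the 4 of the 7 genes called, 1 was called without samples 4 to 6 and 0 before the adjustment without them. Leaving out each sample gave 3 to 5 calls and log2 fold changes of 1.49 to 1.94 for Cilp, 1.91 to 2.17 for Cthrc1, 0.30 to 0.37 for Fap, 1.71 to 2.24 for Fn1, 0.59 to 0.98 for Aebp1, 1.04 to 1.47 for Comp and 0.57 to 0.78 for Ptn. Without samples 4 to 6, Comp turned to -0.14 and Cilp (0.36), Fn1 (0.46) and Ptn (0.70) lost the call. Before the adjustment, Cilp (11.7 FPKM), Fn1 (22.7), Cthrc1 (7.31) and Fap (0.52) passed with all samples but not without samples 4 to 6. Ptn passed limma there neither with all samples (4.19 FPKM, adjusted p = 0.0825) nor without samples 4 to 6 (3.93). Ptn also lost its call by the Wilcoxon rank-sum test (0.72, adjusted p = 0.0628), without samples 7 to 9 (0.39, adjusted p = 0.0368) and on a linear scale (3.70 FPKM). Aebp1 gained a call with a mean of at least 1 (0.85), with median-ratio scaling (0.83), without samples 1 to 3 (1.14) and on a linear scale (9.15 FPKM). Comp gained one without samples 7 to 9 (1.96, adjusted p = 0.0471), and its exact p within sets was 0.0212 before the adjustment. Fap gained one on a linear scale (0.78 FPKM) and before the adjustment (0.80 FPKM), where no fold change threshold applies. Of all genes, 3 instead of 1050 passed the interaction test without samples 4 to 6. Apart from the left-out sets, the cause of these changes was not tested.

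The replicate numbers were not taken to pair the samples. With the group means taken off, same-numbered samples correlated between -0.557 and -0.001, and 0 of 12 ANG II samples correlated best with its own number. These values keep the set means, which the adjustment moved, so they cannot decide whether samples were paired. With the set means taken off too, r lay between -0.424 and 0.268. With the replicate number as a block, 1 of the 7 genes was called, with Cilp (1.81, adjusted p = 0.0703), Fn1 (2.08, adjusted p = 0.0638) and Ptn (0.72, adjusted p = 0.0817) not past the threshold, and 715 genes were called in all.

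Fragment counts per gene and sample were not used, so the depth behind low values such as those of Fap is unknown.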
